A study of Mus musculus with 12 samples.

Results

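Myotubes of the C2C12 line, taken 7 days into differentiation, were compared with undifferentiated C2C12 myoblasts over every gene of a total RNA count table. The comparison used 6 of the series' 12 samples, 3 libraries of each group, chosen by their labels alone. The other 6 are small RNA libraries of mouse embryonic stem cells and were not analysed here. C2C12 is an immortalised line of mouse skeletal muscle myoblasts, so both groups stand for a single line in culture and contain no nerve, vessel or immune cells of a muscle. The labels give both groups the same line, incubator conditions and RNA preparation, and differ only in differentiation. They do not give the differentiation medium, nor whether each library had a culture of its own, so the p-values reflect how far these samples vary, and that variation may be technical.

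Myoblasts divide until growth factors are withdrawn. They then leave the cell cycle, switch on the muscle transcription factors of the MyoD and MEF2 families, fuse with each other and fill the shared cytoplasm with sarcomeres, the repeated units of thick and thin filaments that contract. A culture of myotubes usually keeps some mononucleated cells, which may be reserve cells that stay undifferentiated. In libraries of whole cultures, fewer cells of a type and less RNA per cell cannot be told apart.

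Levels are CPM, the reads of a gene scaled to library depth, after TMM scaling, a scaling that centres most genes on no change, and are given in the order of replicates 1, 2 and 3. A gene was called when the adjusted p of edgeR's quasi-likelihood test was under 0.05, and "adjusted p" refers to that test throughout. Log2 fold changes are myotube over myoblast and carry their standard error (SE) after the ± sign. Total counts ranged from 22200097 to 54083215 in myoblasts and from 18335785 to 31119511 in myotubes. Of the 55385 genes listed, 25085 had no count in any of the 6 libraries, and 15932 passed the filter on low counts and were tested.

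Myotube replicate 1 stood apart from the other 2 myotube libraries. The gap of each myotube library from the mean log2 level of the other 2 was taken over 7445 genes of at least 20 CPM. Replicate 1 was more than 2-fold above that mean for 341 genes and more than 2-fold below it for 439. For replicate 3 these counts were 61 and 72 genes, and for replicate 2 they were 62 and 86. Sarcomere genes took 2.01% of the counts of replicate 1, against 4.4% and 4.64% in replicates 2 and 3. Collagen genes took 4.02%, against 1.47% and 1.45%. The principal component that separated the groups held 78.6% of the variance, and the next one, with 10.9%, set myoblast replicate 1 and myotube replicate 1 apart from the rest. Results found to rest on this library are given with and without it, and the part that its composition had in them was not tested.

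The markers of the labels pointed the way the labels do. Myog, the myogenin gene that turns on early in differentiation, stood at 2.82, 10.1 and 9.7 CPM in myoblasts and at 236, 663 and 624 CPM in myotubes. Myh4, a fast myosin heavy chain, was at 0.167, 0.365 and 0.375 CPM in myoblasts and 572, 606 and 636 CPM in myotubes. Ttn, which encodes the giant spring protein titin, was at 144, 75.1 and 175 CPM in myoblasts and 5277, 9933 and 13322 CPM in myotubes. The groups did not overlap for any of these genes, with myotube replicate 1 the lowest myotube library for each. Mki67, which marks dividing cells, was at 854, 561 and 706 CPM in myoblasts and 295, 86.5 and 80.4 CPM in myotubes, so the myotube cultures kept some of its transcript, most of all in replicate 1. Some markers of other tissues were at 0 in all 6 libraries. Among them were Adipoq of adipocytes, Emcn of vessels, Rbfox3 and Snap25 of neurons, Sox10 of Schwann cells and Myl7 of the heart. Other members of the same marker lists were detected. Called higher were Cebpa (17.1 CPM in myotube replicate 3), Vwf (0.977 CPM in replicate 2), Erbb3 (145 CPM in replicate 2) and Myh6 (9.84 CPM in replicate 3). Other members of the adipocyte and heart lists were called lower. Pparg went from 23.5, 22.8 and 20.1 CPM to 10.2, 6.19 and 8.74 CPM. Gata4 went from 16.6, 15.2 and 16.3 CPM to 6.79, 8.47 and 6.95 CPM, and Nppb from 1, 2.02 and 3.89 CPM to 0.154, 0.456 and 0.405 CPM. The neuron marker Nefl, called lower, reached 438 CPM in myoblast replicate 3.

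Promoter sequences are shown for 6 genes because a short letter pattern that was more frequent in sarcomere genes, and another that was more frequent in mitosis genes, can be seen in them. The windows are the 250 bases before the annotated start, from RefSeq on build GRCm38.p6, written 5′ to 3′ on the gene's strand. Capitals mark CAGCTG, the E-box that MyoD and myogenin are known to bind, in 3 sarcomere genes, and TTTGAA or its reverse complement, the CHR element of many mitosis genes, in 3 division genes. Mylpf (fast myosin light chain) lies at chr7:127211358-127211607 on the plus strand, Des (desmin) at chr1:75360042-75360291 on the plus strand and Acta1 (skeletal actin) at chr8:123894776-123895025 on the minus strand. Top2a (topoisomerase) lies at chr11:99024190-99024439 on the minus strand, Mki67 at chr7:135716380-135716629 on the minus strand and Prc1 (a spindle midzone protein) at chr7:80294226-80294475 on the plus strand.
Mylpf: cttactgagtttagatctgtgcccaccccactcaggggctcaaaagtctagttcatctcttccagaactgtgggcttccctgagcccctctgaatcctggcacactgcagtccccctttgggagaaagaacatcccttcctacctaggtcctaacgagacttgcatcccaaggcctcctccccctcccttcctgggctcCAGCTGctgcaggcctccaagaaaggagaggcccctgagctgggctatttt
Des: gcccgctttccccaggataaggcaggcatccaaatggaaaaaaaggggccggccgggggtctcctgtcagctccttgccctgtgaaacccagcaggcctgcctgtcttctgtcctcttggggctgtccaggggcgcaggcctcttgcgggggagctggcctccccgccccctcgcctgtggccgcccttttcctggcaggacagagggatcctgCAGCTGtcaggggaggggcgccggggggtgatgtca
Acta1: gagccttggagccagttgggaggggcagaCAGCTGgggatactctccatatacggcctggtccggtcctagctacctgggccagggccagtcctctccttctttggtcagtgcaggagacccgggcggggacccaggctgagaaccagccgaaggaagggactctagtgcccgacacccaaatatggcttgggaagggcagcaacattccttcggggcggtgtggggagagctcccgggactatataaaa
Top2a: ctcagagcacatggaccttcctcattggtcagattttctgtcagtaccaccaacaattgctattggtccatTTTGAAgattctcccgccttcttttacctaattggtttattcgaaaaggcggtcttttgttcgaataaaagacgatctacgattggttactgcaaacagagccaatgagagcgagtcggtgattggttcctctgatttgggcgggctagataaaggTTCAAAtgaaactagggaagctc
Mki67: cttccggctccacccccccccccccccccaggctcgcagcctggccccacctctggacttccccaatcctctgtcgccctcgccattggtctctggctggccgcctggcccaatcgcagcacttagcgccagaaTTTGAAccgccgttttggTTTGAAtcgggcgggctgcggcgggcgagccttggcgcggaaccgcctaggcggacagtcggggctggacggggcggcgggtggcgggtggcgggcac
Prc1: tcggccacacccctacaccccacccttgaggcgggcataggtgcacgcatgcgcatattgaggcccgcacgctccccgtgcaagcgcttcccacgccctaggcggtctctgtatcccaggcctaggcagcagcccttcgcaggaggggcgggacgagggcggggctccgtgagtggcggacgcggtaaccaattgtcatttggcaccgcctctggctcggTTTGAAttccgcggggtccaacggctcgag

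For counts over whole lists the promoter was set as 250 bases before to 50 bases after the start, unlike the printed windows. CAGCTG was present in 20 of 61 promoter windows of 51 sarcomere genes, 32.8%. It was in 12.6% of the 13521 windows of tested genes and 13% of all 32851 windows. The core of the MEF2 site was in 11.5% of sarcomere windows and 3.2% of all. Both patterns read the same on either strand, and neither holds the other. TTTGAA, on either strand, was in 10 of 32 windows of 31 mitosis genes, 31.2%, against 10.8% for tested genes and 16% of all windows. CCAAT, also sought on both strands, was in 71.9% of mitosis windows, 54.2% of DNA replication windows and 35.5% of windows of tested genes. Among genes called more than 4-fold higher CAGCTG was in 20.3% of windows, and among those more than 4-fold lower in 11.6%. These are matches of letters, and nothing was measured of any factor at these sites.

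The genes behind the printed windows moved as follows. Mylpf rose from 2.45, 8.25 and 13.1 CPM in myoblasts to 1303, 2752 and 2814 CPM in myotubes (log2 fold change 8.19 ± 0.76, adjusted p = 0.000261). Des was already abundant before differentiation and rose from 358, 560.3 and 584 CPM to 863, 2426 and 2040 CPM (1.83 ± 0.40, adjusted p = 0.00872). Acta1 stood at 4.14, 12.3 and 36.9 CPM in myoblasts and at 1018, 2809 and 1844 CPM in myotubes, with myoblast replicate 3 the highest myoblast library. Its log2 fold change was 6.74 ± 0.90, 7.83 without that library and 7.41 with limma-voom. Prc1 fell from 286, 319.5 and 309 CPM to 99.7, 34.4 and 29.4 CPM (-2.48 ± 0.46, and -3.28 without myotube replicate 1). Top2a was at 854, 936 and 906 CPM in myoblasts and at 411, 90.2 and 73.7 CPM in myotubes, so that myotube replicate 1 lay between the myoblast libraries and the other myotube libraries. Its log2 fold change was -2.23 ± 0.63 (adjusted p = 0.0243), and -3.47 without that library. The call was lost without myoblast replicate 2 or 3 (0.0605 and 0.0586), without myotube replicate 2 (0.0636) and with no filter (0.147).

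Differentiation moved a large part of the transcriptome. Of the 15932 tested genes 3264 were higher in myotubes, 20.5%, and 3122 were lower, 19.6%, so that 40.1% were called in either direction. Large rises outnumbered large falls, though not at every level. More than 4-fold higher were 1453 genes (9.12%), and more than 4-fold lower were 707 (4.44%). By level in the higher group, these shares were 17.4% and 4.47% from 1 to 5 CPM and 5% and 4.17% from 20 to 100 CPM. They were 5.67% and 6.41% from 100 to 500 CPM, and 13.9% and 4.73% from 500 CPM upwards. The groups did not overlap for 56% of tested genes. When genes needed 50 or more counts on average, 907 genes were called more than 4-fold higher.

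The share of genes called depended on their level. It was 17.8% for genes under 1 CPM in their higher group, 39.8% from 5 to 20 CPM and 57.1% from 500 CPM upwards. Protein-coding genes made up 12523 of those tested, with 2722 higher and 2826 lower. Long non-coding RNAs leaned upwards, with 178 higher and 49 lower of 664 and a median log2 fold change of 0.73. Pseudogenes leaned downwards, with 28 higher and 160 lower of 877, though reads of a parent gene can be counted to its copies.

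**Figure D1:**
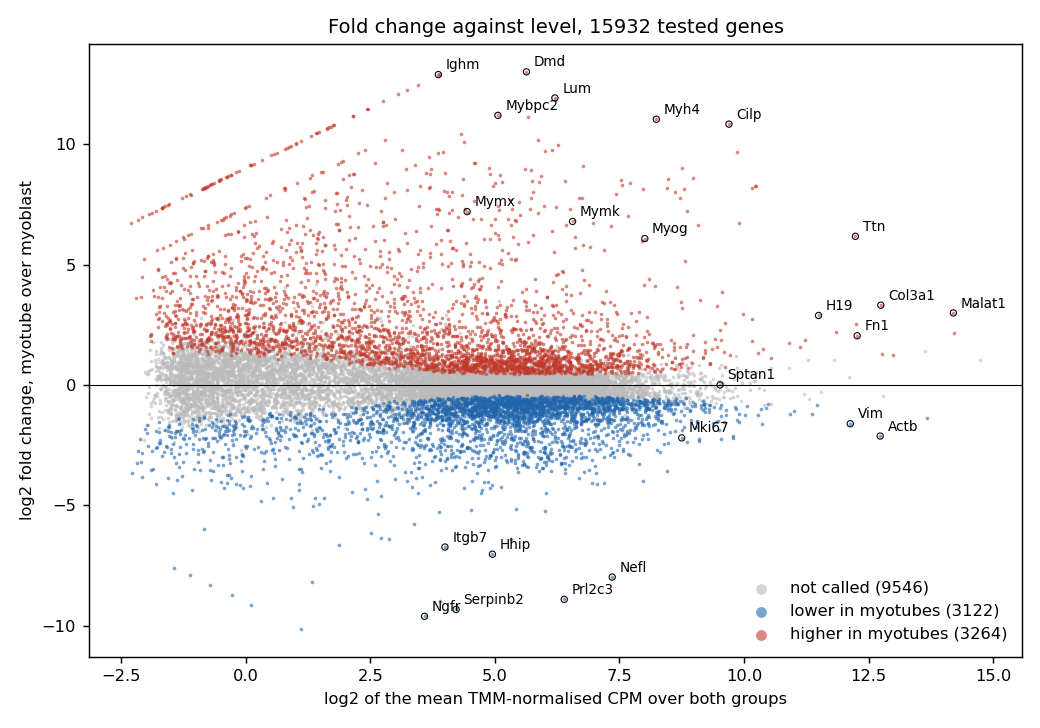
Each point is a tested gene, placed by its mean level (log2 CPM, x axis) and its log2 fold change of myotube over myoblast (y axis), with called genes coloured by direction. Called rises reach further from 0 than called falls, with 1453 genes more than 4-fold higher against 707 more than 4-fold lower.

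Genes with the largest rises were muscle structure genes together with several that are not. Cilp, a cartilage matrix protein, stood at 0.167, 0.195 and 2.81 CPM in myoblasts and 3147, 752 and 1078 CPM in myotubes. Its log2 fold change of 10.84 ± 1.40 became 13.13 without myoblast replicate 3, which held most of its myoblast counts. It was 10.21 and 10.24 without myoblast replicates 1 and 2, 10.07 without myotube replicate 1 and 11.78 with limma-voom. Myoz2, calsarcin of the sarcomere's Z disc, rose from 0.117, 0.0973 and 0.0469 CPM to 42, 116 and 190.1 CPM (10.18 ± 0.75, adjusted p = 0.000136). Abra, an actin-binding activator of SRF signalling, had 3 counts over the myoblast libraries and 2923 over the myotube libraries, a ratio of 1614 whose 95% interval from counting error runs from 552 to 7830. R3hdml, a secreted protein with a CAP domain, had 4 myoblast counts against 3151, a ratio of 1305 (509 to 4792). Lum, which encodes the proteoglycan lumican, was at 0, 0.0243 and 0.141 CPM in myoblasts and 378, 32.7 and 31.7 CPM in myotubes, far higher in replicate 1 than in the others. Its log2 fold change of 11.93 ± 1.67 was 9.72 without that library, 11.02 and 13.39 without myoblast replicates 1 and 3 and 10.97 with limma-voom.

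In all, 19 genes had 0 counts in every myoblast library and at least 5 CPM on average in myotubes, and no gene showed the reverse pattern. Their folds are lower bounds, taken with 3 counts assumed in the myoblast libraries together. Ighm, annotated as an immunoglobulin heavy chain gene, stood at 7.68, 39.8 and 40 CPM in myotubes and was at least 1166-fold higher. Asprv1, a retroviral-like aspartic protease known from skin, stood at 15.5, 23.4 and 49 CPM and was at least 1086-fold higher. Fxyd6, a modulator of the sodium pump, stood at 3.63, 31.3 and 30.7 CPM and was at least 875-fold higher. All 3 were detected in each myotube library, with replicate 1 the lowest, although with no filter the adjusted p of Ighm was 0.0599 and that of Fxyd6 0.101. Ppp1r3a, which ties a phosphatase to muscle glycogen, stood at 7.03, 14.9 and 18.7 CPM and was at least 532-fold higher. Myot, which encodes the Z disc protein myotilin, stood at 7.18, 9.93 and 15.8 CPM and was at least 421-fold higher. Otud7a, a deubiquitinase, stood at 4.17, 10.2 and 12.2 CPM and was at least 349-fold higher. Sectm1a, with 54.4, 0.944 and 0.926 CPM, and Gask1a, with 31.4, 0.488 and 0.637 CPM, were found almost wholly in myotube replicate 1, so their bounds of 803-fold and 463-fold rest on that library. Without it the bounds were 38.3-fold for Sectm1a and 22.1-fold for Gask1a. Their calls were lost without myoblast replicate 1, 2 or 3, with adjusted p of 0.0611, 0.0617 and 0.0585 for Sectm1a and of 0.0657, 0.0662 and 0.0618 for Gask1a.

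Genes with the largest falls included receptors, a ligand and secreted or cell surface proteins. Ngfr, the low-affinity neurotrophin receptor that myoblasts are known to carry, had 2695 counts over the myoblast libraries and 2 over the myotube libraries, a ratio of 814 (225 to 6721). In CPM it went from 15.5, 28.4 and 28.3 to 0.0386, 0.0326 and 0, without overlap. Itgb7, an integrin subunit better known from lymphocytes, fell from 32.4, 35.8 and 26.8 CPM to 0.54, 0.195 and 0.116 CPM, a log2 fold change of -6.73 ± 0.45, or -7.57 without myotube replicate 1. Hhip, a decoy receptor for hedgehog ligands, fell from 38.5, 61.6 and 84.2 CPM to 0.965, 0.261 and 0.116 CPM (-7.03 ± 0.63, or -8.21 without that library). Areg, the EGF-family ligand amphiregulin, fell from 9.91, 22.1 and 29.5 CPM to 0.386, 0.326 and 0.405 CPM (-5.78 ± 0.49, adjusted p = 0.000171). Htr1b, a serotonin receptor, fell from 14.5, 30.8 and 40.8 CPM to 0.154, 0.977 and 1.16 CPM (-5.26 ± 0.67, adjusted p = 0.000902). Serpinb2, a plasminogen activator inhibitor, had 3183 counts against 4, a ratio of 480 (187 to 1764), and its myoblast level varied widely, from 7.09 CPM in replicate 1 to 78.3 CPM in replicate 3. Lrp2, the endocytic receptor megalin, rested in part on myoblast replicate 1. It stood at 93.5, 12.7 and 28.9 CPM in myoblasts and 2.35, 0.912 and 0.347 CPM in myotubes, and its log2 fold change of -5.18 ± 0.91 was -4.08 without that library and -6.07 without myotube replicate 1. With no filter its adjusted p was 0.0501.

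The largest differences in CPM, which is not corrected for gene length, were in a few very abundant RNAs. Malat1, a long nuclear RNA, rose from 7265, 2711 and 2627 CPM to 33405, 30128 and 36882 CPM (2.99 ± 0.50, or 3.64 without myoblast replicate 1, the highest myoblast library). The mitochondrial ribosomal RNA mt-Rnr2 rose from 7367, 4735 and 8915 CPM to 28145, 28451 and 36273 CPM (2.14 ± 0.37, adjusted p = 0.00308), although the libraries were depleted of ribosomal RNA. H19, an imprinted long RNA of fetal muscle, rose from 401, 932 and 729.8 CPM to 2785, 5723 and 6763 CPM (2.89 ± 0.45, adjusted p = 0.00196). The other abundant genes that gained most were Ttn and the matrix genes Col3a1, Fn1 and Thbs1, whose values are given with their groups.

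The abundant transcripts that fell included several of the cytoskeleton. Actb, cytoplasmic actin, fell from 9605, 10167 and 13422 CPM to 1380, 3087 and 3168 CPM (-2.12 ± 0.39, adjusted p = 0.00418), and was lowest in myotube replicate 1. Actg1, the other cytoplasmic actin, fell from 1197, 1386 and 1741 CPM to 170.4, 413 and 356 CPM (-2.20 ± 0.35, adjusted p = 0.00223). Vim, the intermediate filament protein vimentin, fell from 5893, 6951 and 7429 CPM to 3191, 1833 and 1618 CPM (-1.61 ± 0.34, adjusted p = 0.00696), and here replicate 1 was the highest myotube library. Ftl1, the light chain of the iron store ferritin, fell from 1359, 1651 and 1247 CPM to 366, 397 and 222 CPM (-2.11 ± 0.28, adjusted p = 0.000985). The predicted gene Gm26917, the most abundant entry of the myoblast libraries on average, fell from 21037, 14118 and 21453 CPM to 6118, 7571 and 8154 CPM (-1.37 ± 0.33).

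Sarcomere genes rose almost as a whole. Of 62 tested members of the list 56 rose and 1 fell, against 20.5% higher and 19.6% lower among all tested genes, with a median log2 fold change of 7.29 where that of all tested genes was 0.06. Their summed level went from 2427, 2958 and 4084 CPM to 21160, 44583 and 49215 CPM. Isoforms of fast, slow and embryonic fibres were among those that rose. Myh3, the embryonic myosin heavy chain, rose from 2.47, 8.88 and 11.7 CPM to 1302, 2743 and 3098 CPM (8.29 ± 0.75, adjusted p = 0.000237), and Myh1, a fast adult one, from 0.768, 3.33 and 2.77 CPM to 951, 2424 and 2194 CPM (9.69 ± 0.77, adjusted p = 0.00016). Tnnt1, troponin T of slow fibres, rose from 1.47, 3.92 and 4.45 CPM to 147, 411 and 393 CPM (6.62 ± 0.61), and Tnnt3, its fast counterpart, from 1, 2.43 and 3.89 CPM to 353, 897 and 841 CPM (8.20 ± 0.67). Myl4, a light chain of the embryo and the heart's atria, rose from 2.35, 2.34 and 3.19 CPM to 513, 1202 and 1306 CPM (8.60 ± 0.48). In each of these genes myotube replicate 1 was the lowest myotube library and yet far above every myoblast library. The genes that fold and protect the filaments rose too, among them the myosin methyltransferase gene Smyd1 (5.21 ± 0.51) and Klhl40 (7.26 ± 0.47), whose product stabilises the thin filament. Tpm3, a tropomyosin used by slow fibres and by other cells, was the member that fell, from 441, 482 and 505 CPM to 227, 222 and 251 CPM (-1.03 ± 0.17, adjusted p = 0.00267).

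The calcium release machinery rose with the filaments. Of 26 tested genes 21 rose and 1 fell, with a median of 3.24. The gene that fell, Fkbp1a, lost its call without myoblast replicate 1 or 3 or myotube replicate 2 (adjusted p 0.059 to 0.0628). Ryr1, the calcium release channel of skeletal muscle, rose from 3.79, 3.29 and 6.42 CPM to 89.3, 296 and 326 CPM (5.74 ± 0.57, adjusted p = 0.000332). Trdn, triadin, which anchors the calcium store to that channel, rose from 0.25, 0.243 and 0.187 CPM to 16.3, 53.5 and 72.4 CPM (7.64 ± 0.65). Bin1, which shapes the T-tubule membrane, was expressed in myoblasts and rose from 222, 225 and 234 CPM to 438, 808 and 817 CPM (1.60 ± 0.27). Mtm1, the lipid phosphatase myotubularin, was the exception in its order of libraries, with 3.27, 3.46 and 1.97 CPM in myoblasts and 17, 9.8 and 8.97 CPM in myotubes (2.03 ± 0.36), highest in myotube replicate 1. Among small membrane proteins, the fusion genes Mymk and Mymx differed in how the libraries stood. Mymk, which encodes myomaker, reached 79.9, 246 and 235 CPM in myotubes from 0.835, 1.9 and 2.48 CPM, and Mymx, which encodes myomixer, 48.3, 45.9 and 35.4 CPM from 0.117, 0.316 and 0.562 CPM, so that replicate 1 was low for Mymk and not for Mymx. The calcium pump inhibitor genes Pln and Sln had 3 and 1 counts over the myotube libraries and 0 over the myoblast libraries, and Strit1 had 24 and 0, too few to be tested.

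Genes of membrane repair moved in both directions, as did all tested genes, of which 20.5% were higher and 19.6% lower. Of 27 tested genes of the list 6 rose and 7 fell, with a median of -0.31. The share called was 48.1%, against 40.1% of all tested genes. Dysf, dysferlin, which seals torn membrane, rose from 4.49, 6.84 and 10.7 CPM to 27.3, 94.6 and 84.3 CPM (3.24 ± 0.52, adjusted p = 0.00234). Trim72, which gathers vesicles at a tear, rose from 0.234, 0.535 and 0.469 CPM to 76.2, 319 and 254 CPM (9.09 ± 0.71). Cavin4, the muscle coat protein of caveolae, rose from 22.8, 40.1 and 29 CPM to 168, 359.9 and 386 CPM (3.31 ± 0.37). Anxa2, a widely expressed annexin of the same process, fell from 1228, 1662 and 1499 CPM to 793, 554 and 509.5 CPM (-1.24 ± 0.26), and so did Ehd1, a membrane remodelling ATPase, from 184, 162 and 168 CPM to 57.8, 96.7 and 88.6 CPM (-1.08 ± 0.22). The number of members that fell was 3 without myoblast replicate 2, 3 without myotube replicate 2 and 2 without myotube replicate 3.

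The complex that ties dystrophin to the matrix rose in 14 of 22 tested genes and fell in none, with a median of 1.02. With library size scaling or the replicate block 1 gene was called lower, and without myotube replicate 1 there were 2. Sgca, alpha-sarcoglycan, rose from 2.77, 3.11 and 3.28 CPM to 20.1, 65.7 and 60.3 CPM. Dag1, dystroglycan, which other cells also make, rose less, from 122, 126 and 137 CPM to 185, 412 and 452 CPM (1.45 ± 0.32). Nos1, the nitric oxide synthase that docks on the complex, rose from 0.517, 0.365 and 0.187 CPM to 28.3, 38.8 and 32.5 CPM (6.42 ± 0.35, adjusted p = 4.39e-05). At the neuromuscular junction 10 of 14 tested genes rose and none fell (median 2.03), although these cultures have no nerve. The fetal receptor subunit gene Chrng rose from 1.84, 3.41 and 1.78 CPM to 131, 299 and 313 CPM (6.71 ± 0.48), and Musk, the kinase that clusters receptors, from 13.8, 33 and 24.6 CPM to 76.5, 142 and 131 CPM (2.29 ± 0.36). Ache, acetylcholinesterase, stayed scarce, at 1.31, 3.09 and 2.72 CPM in myotubes against 0.0501, 0.0487 and 0 CPM (5.79 ± 0.70). Of 16 tested ion channel genes 9 rose and 2 fell, the median of 2.23 being 2.97 where a mean count of 50 or more was required and 3.44 without myoblast replicate 1. The genes that fell, Clcn1 and Hcn2, both lost their calls when myoblast replicate 2 or 3 or any myotube library was left out, with no filter or with the replicate block (adjusted p 0.066 to 0.165), and were not tested where a mean count of 50 or more was required.

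Transcription factors of the myogenic list split nearly evenly, with 8 of 36 tested higher and 10 lower. All tested genes split nearly evenly too, with 20.5% higher and 19.6% lower. The share called was 50% in the list and 40.1% over all tested genes. Mef2c, a MEF2 factor of late muscle genes, rose from 1.55, 1.8 and 2.02 CPM to 194, 619.9 and 688 CPM (8.14 ± 0.57, adjusted p = 0.000114). Mef2a, a sister factor already present in myoblasts, rose from 77.2, 115 and 130.4 CPM to 165, 399 and 360.2 CPM (1.52 ± 0.35). Id1, Id2 and Id3, inhibitors of MyoD that hold E proteins in inactive pairs, fell, and Id4 was too low to be tested. Id1 fell from 77.8, 90.4 and 70.2 CPM to 26.3, 25.1 and 19.9 CPM (-1.74 ± 0.19), Id2 from 53, 95.8 and 74.5 CPM to 17.4, 37.8 and 24.7 CPM (-1.48 ± 0.33) and Id3 from 85, 229 and 119 CPM to 23.5, 23.2 and 19.7 CPM (-2.70 ± 0.36). Msc, the repressor musculin, fell from 9.56, 9.8 and 6 CPM to 0.232, 0.554 and 0.347 CPM (-4.45 ± 0.45), and Twist2, another repressor, from 35.9, 31.6 and 23.1 CPM to 7.03, 3.91 and 2.78 CPM (-2.72 ± 0.36). The E protein genes, whose products pair with MyoD, diverged. Tcf3 fell from 95.2, 114 and 109 CPM to 46.9, 46.9 and 44.4 CPM (-1.20 ± 0.16), while Tcf4 rose from 109, 118 and 83 CPM to 298, 366 and 353 CPM (1.71 ± 0.20), and for both the libraries within a group lay close together. Zeb1, which can repress muscle genes at E-boxes, rose from 70.8, 70.4 and 75.2 CPM to 224, 264 and 305 CPM (1.87 ± 0.18).

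**Figure D2:**
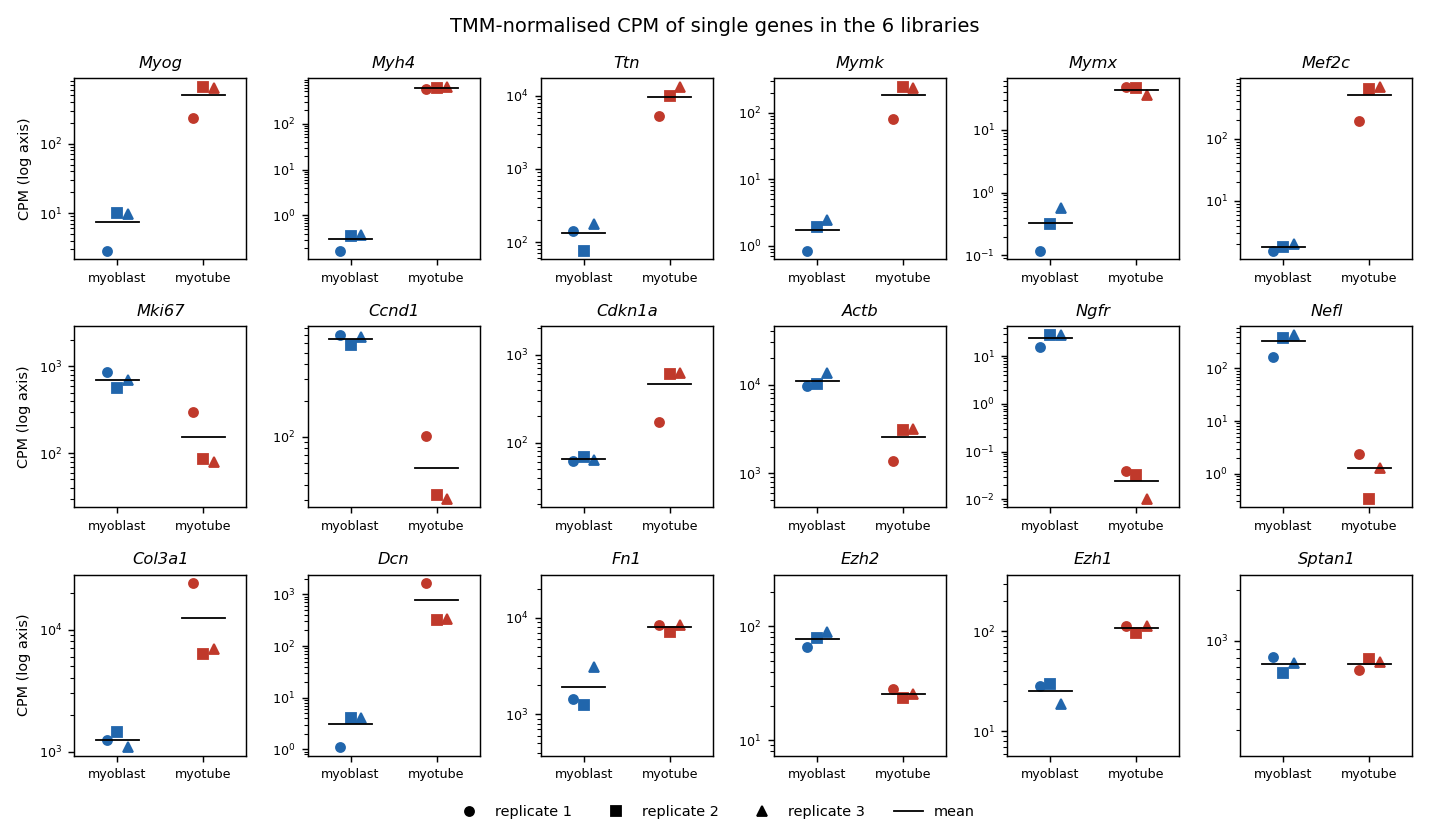
Each panel gives the level of a gene (CPM, log scale) in each of the 3 myoblast and 3 myotube libraries, with circles, squares and triangles for replicates 1, 2 and 3 and a line at the mean. A level of 0, as for Ngfr in myotube replicate 3, is drawn at the lower end of its panel. Myotube replicate 1 lies below replicates 2 and 3 for Ttn, Mymk and Mef2c and above them for Mki67, Ccnd1, Col3a1 and Dcn.

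In several pairs of related genes the member of muscle or of resting cells took a larger share of the pair in myotubes. These pairs were picked after their values were seen, so their shares are descriptions, given as percent of the pair's summed TPM, a level per gene length. Mef2c made up 1.71 ± 0.313% of Mef2d and Mef2c together in myoblasts and 72.4 ± 1.57% in myotubes (SD, n = 3). Unc45b, the muscle myosin chaperone, went from 1.31 ± 1.10% of the pair with Unc45a to 86.7 ± 4.56%. Ezh1, the Polycomb methyltransferase of resting cells, went from 23 ± 6.35% of the pair with Ezh2 to 78.8 ± 0.97%, with 78.1, 78.4 and 79.9% in the 3 myotube libraries. Rbl2, a pocket protein of resting cells, went from 40.5 ± 4.74% of the pair with Rbl1 to 85.5 ± 7.13%. Srpk3, a splicing kinase of muscle, went from 0.218 ± 0.148% of the pair with Srpk1 to 56.9 ± 8.24%. Eif4a2 went from 16.5 ± 1.54% of the pair with the translation helicase Eif4a1 to 48.4 ± 7.75%. The muscle form did not always displace the other. Cox6a2 and Cox8b, muscle subunits of cytochrome oxidase, reached 22.6 ± 11.5% and 14.8 ± 5.45% of their pairs. Eno3, the muscle enolase, was at 54.6, 59.5 and 56.5% in myoblasts and at 50.1, 81 and 76.7% in myotubes, an overlap of the groups. In Cav3, Pygm, Pgam2 and Tubb6 the share in myotube replicate 1 lay far below that of replicates 2 and 3, for example 11.8% against 56.4% and 43.9% for Cav3.

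**Figure D3:**
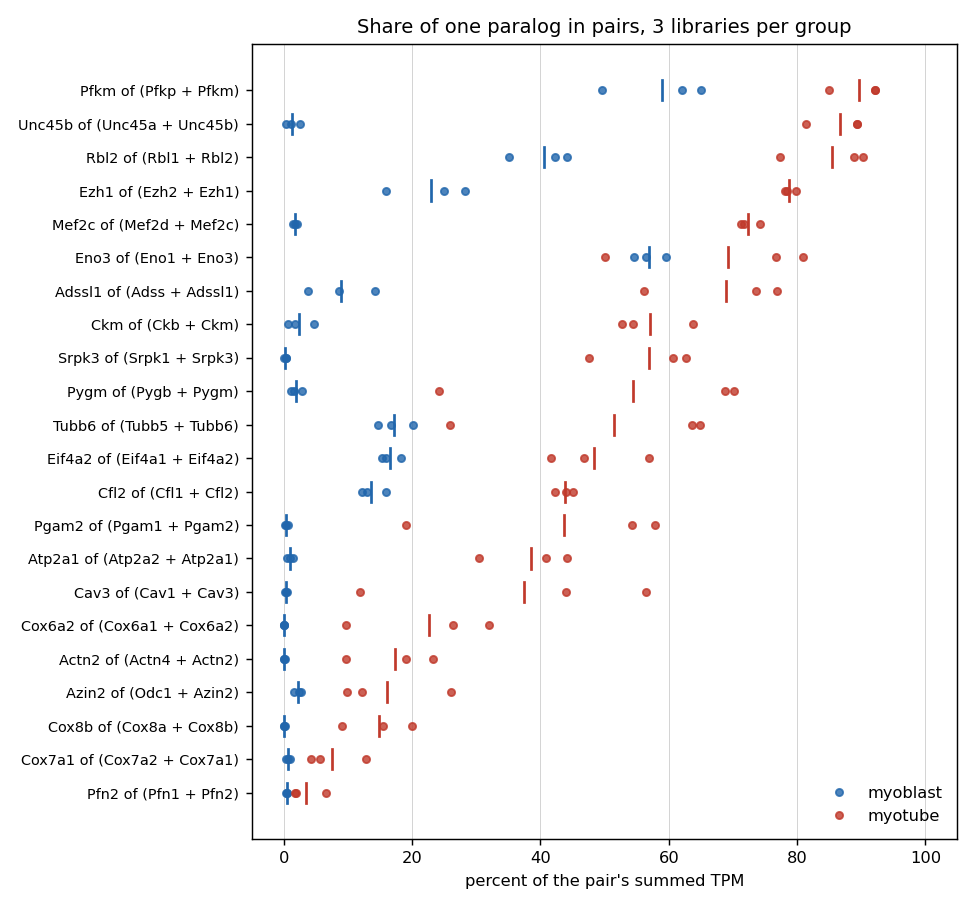
Each row gives the percent of a gene pair's summed TPM that the muscle or resting-cell member holds, with a point per library and a bar at the mean of the 3 myoblast or 3 myotube libraries. Unc45b, Pfkm, Rbl2, Ezh1 and Mef2c hold the larger share in every myotube library, while Eno3 overlaps between the groups.

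Of 38 tested genes of glycolysis and glycogen 14 rose, 2 fell and 22 were not called (median 0.54), 42.1% called against 40.1% of all tested genes, with 6 lower without myotube replicate 1, 4 with DESeq2 and 0 without myoblast replicate 2 or myotube replicate 2 or 3. Pygm, glycogen phosphorylase of muscle, rose from 0.701, 0.852 and 1.17 CPM to 27, 84.8 and 87 CPM (6.23 ± 0.53, adjusted p = 0.000199), and Gys1, glycogen synthase, from 52.3, 37.9 and 36.9 CPM to 112, 123 and 121 CPM (1.49 ± 0.19). Aldoa, an abundant glycolytic enzyme, stood at 1179, 937 and 817 CPM and 1728, 1203 and 1374 CPM and was not called (0.55 ± 0.25, adjusted p = 0.107). Slc2a4, the insulin-sensitive glucose transporter, stayed under 1 CPM in all 6 libraries. Of 19 genes of the phosphagen and adenylate transfer list 10 rose and 5 fell (median 0.84). That list also holds the myoglobin gene Mb and the cytochrome oxidase genes Cox6a2, Cox8b and Cox7a1, which were among those that rose. Ampd1, the AMP deaminase of muscle, rose from 0.117, 0.073 and 0.0469 CPM to 2.08, 3.71 and 6.89 CPM (5.56 ± 0.66), and Ampd2, its counterpart elsewhere, fell from 58.7, 66.7 and 77.5 CPM to 24.5, 30.8 and 26.5 CPM (-1.31 ± 0.18). Ak1, a cytosolic adenylate kinase, rose from 129, 149 and 99.6 CPM to 222, 234 and 219 CPM (0.84 ± 0.19).

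Of 29 tested nuclear genes of the tricarboxylic acid cycle and linked enzymes 11 fell and 1 rose (median -0.30). The share called was 41.4%, against 40.1% of all tested genes, and 5 were lower without myoblast replicate 2 or without myotube replicate 3. Those that fell included the linked enzyme genes Got1, Got2, Me1 and Me2. Cs, citrate synthase, fell from 426, 452 and 455 CPM to 222, 255 and 216 CPM (-0.94 ± 0.17), and Mdh2, malate dehydrogenase, from 268, 250.4 and 236 CPM to 100, 144 and 142 CPM (-0.97 ± 0.20). The member that rose, Pcx, feeds the cycle from pyruvate and went from 18.9, 19.4 and 11.2 CPM to 49, 59.5 and 55.8 CPM (1.73 ± 0.24). Of 10 tested mitochondrially encoded protein genes 7 rose and none fell (median 1.26), but 3 rose without myoblast replicate 2, myoblast replicate 3 or myotube replicate 3. mt-Nd4, a complex I subunit, went from 88.7, 32.2 and 92.4 CPM to 265, 252 and 348 CPM (2.02 ± 0.39, adjusted p = 0.00498) and mt-Nd5 from 257, 97.8 and 217 CPM to 445, 487 and 800.3 CPM (1.60 ± 0.39). Of 26 tested genes of mitochondrial biogenesis and nuclear receptors 4 rose and 6 fell, the latter 3 without myoblast replicate 2 or 3. That is 38.5% called, against 40.1% of all tested genes. Nrf1 fell from 56.6, 56.9 and 59.1 CPM to 28.8, 30.4 and 29.2 CPM (-0.97 ± 0.15), and Polg, the mitochondrial DNA polymerase, from 91, 86.9 and 99.6 CPM to 46.6, 62.9 and 57.3 CPM (-0.73 ± 0.17). Ppargc1a was at 1.4, 1.19 and 1.17 CPM and 1.2, 2.28 and 2.9 CPM and was not called. Fatty acid genes were led by Cd36, the fatty acid transporter, at 0.2, 0.268 and 0.234 CPM in myoblasts and 35.4, 30.5 and 34.3 CPM in myotubes (7.15 ± 0.25, adjusted p = 1.39e-05). Fabp3, the fatty acid carrier of muscle, went from 1.6, 1.29 and 0.89 CPM to 3.98, 20.4 and 25.4 CPM (3.69 ± 0.66). Lpl, lipoprotein lipase, fell from 9.4, 12.6 and 7.22 CPM to 2.28, 2.54 and 4.69 CPM (-1.63 ± 0.37). Over the fatty acid list 12 of 31 rose and 3 fell, 48.4% called against 40.1% of all tested genes. The number that rose was 5 to 7 without myoblast replicate 1 or 3, without myotube replicate 2 or 3 and with library size scaling. The number that fell was 1 without myoblast replicate 3 or myotube replicate 2 or 3.

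Most enzymes that make nucleotides fell. Of 32 tested genes of purine and pyrimidine synthesis 25 fell and 2 rose (median -1.49), and their summed level went from 3549, 4074 and 4574 CPM to 1616, 1646 and 1440 CPM. Cad, which starts pyrimidine synthesis, fell from 162, 153 and 235 CPM to 27.5, 42.2 and 32.5 CPM (-2.42 ± 0.25, adjusted p = 0.000336). Ppat, which starts purine synthesis, fell from 68.5, 75.8 and 103 CPM to 18.5, 29.6 and 28.9 CPM (-1.68 ± 0.25). Adssl1, the muscle enzyme of the purine nucleotide cycle, rose from 13.1, 9.68 and 4.73 CPM to 68.9, 91.6 and 107 CPM (3.27 ± 0.37, adjusted p = 0.000548). The other member that rose, Rrm2b, went from 16.8, 28.6 and 27.5 CPM to 38.2, 42.1 and 38.9 CPM with an adjusted p of 0.0367. Its call was lost without myoblast replicate 1, 2 or 3 (0.0535, 0.0565 and 0.0658), without myotube replicate 2 or 3 (0.103 and 0.0848) and with library size scaling (0.0548). The serine and folate genes that supply carbon units fell with the nucleotide enzymes, 10 of 21 lower and 2 higher (median -0.71). Shmt1, cytosolic serine hydroxymethyltransferase, fell from 38.3, 39.4 and 53.1 CPM to 2.16, 3.58 and 2.55 CPM (-3.97 ± 0.27, adjusted p = 7.92e-05), and Phgdh, which starts serine synthesis, from 350, 307 and 306 CPM to 73.9, 91.4 and 62.1 CPM (-2.08 ± 0.20). Mthfd1 fell from 190.3, 163 and 211 CPM to 36.8, 56.4 and 45 CPM (-2.03 ± 0.21).

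Among targets of the amino acid stress factor ATF4, 9 of 26 fell and 3 rose (median -0.46), 46.2% called against 40.1% of all tested genes. Fgf21, a hormone released by stressed muscle and liver, rose, from 0.284, 0.219 and 0.234 CPM to 17.3, 24.3 and 21.7 CPM (6.38 ± 0.30, adjusted p = 4.39e-05). Nupr1 rose from 25.2, 17.7 and 18.8 CPM to 112, 61.6 and 73.7 CPM, and Slc7a11, the cystine importer, fell from 6.88, 11.3 and 17.8 CPM to 2.39, 1.89 and 1.5 CPM (-2.62 ± 0.41). Atf4 itself stood at 342, 369 and 396 CPM and 270.5, 373 and 280.4 CPM and was not called (-0.26 ± 0.20). Polyamine genes changed at several steps. Odc1, the first enzyme of the route, fell from 227, 244 and 383 CPM to 71.5, 151 and 123 CPM (-1.31 ± 0.32), and Srm, spermidine synthase, from 94.5, 93.5 and 143 CPM to 10.2, 22.8 and 21.9 CPM (-2.59 ± 0.34). Azin2, a relative of Odc1 that blocks its inhibitor, rose from 6.68, 7.81 and 7.03 CPM to 29.8, 19.4 and 20.2 CPM (1.69 ± 0.23), and Oaz2, such an inhibitor, from 23.5, 29.1 and 20.9 CPM to 62.5, 55.9 and 48.9 CPM (1.19 ± 0.19). Cholesterol synthesis genes were not called. Of its 25 tested genes 0 were called with edgeR, and Ebp (unadjusted p = 0.0256) and Cyp51 (unadjusted p = 0.0348) were the 2 with an unadjusted p under 0.05. DESeq2 called 2 higher and the fit with no filter 1. Leaving out single libraries gave 2 higher without myoblast replicate 1, 3 higher without myotube replicate 1 and 1 lower without myoblast replicate 3 or myotube replicate 2.

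Of 38 tested redox genes 17 were lower and 4 higher (median -0.50), or 17 and 7 with the replicate number as a block. Txnrd1, thioredoxin reductase, fell from 372, 443 and 512 CPM to 67.2, 124 and 89.9 CPM (-2.24 ± 0.27, adjusted p = 0.000613), and Gclm, a subunit that limits glutathione synthesis, from 59.5, 77.4 and 82.8 CPM to 14.8, 16.4 and 10.8 CPM (-2.39 ± 0.23). Srxn1 fell from 136, 131 and 113 CPM to 34.6, 24.8 and 23.4 CPM (-2.20 ± 0.21). These are known targets of the stress factor NRF2. Gpx3, a secreted glutathione peroxidase, rose from 8.5, 7.74 and 5.06 CPM to 108, 78.4 and 130.5 CPM (3.89 ± 0.29, adjusted p = 0.000121). Txnip, a thioredoxin inhibitor that follows glucose, was at 27, 25.4 and 28.4 CPM in myoblasts and 630.2, 84.6 and 161 CPM in myotubes, with a log2 fold change of 3.44 ± 0.69, or 2.16 without myotube replicate 1, and with no filter its adjusted p was 0.0723.

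**Figure D4:**
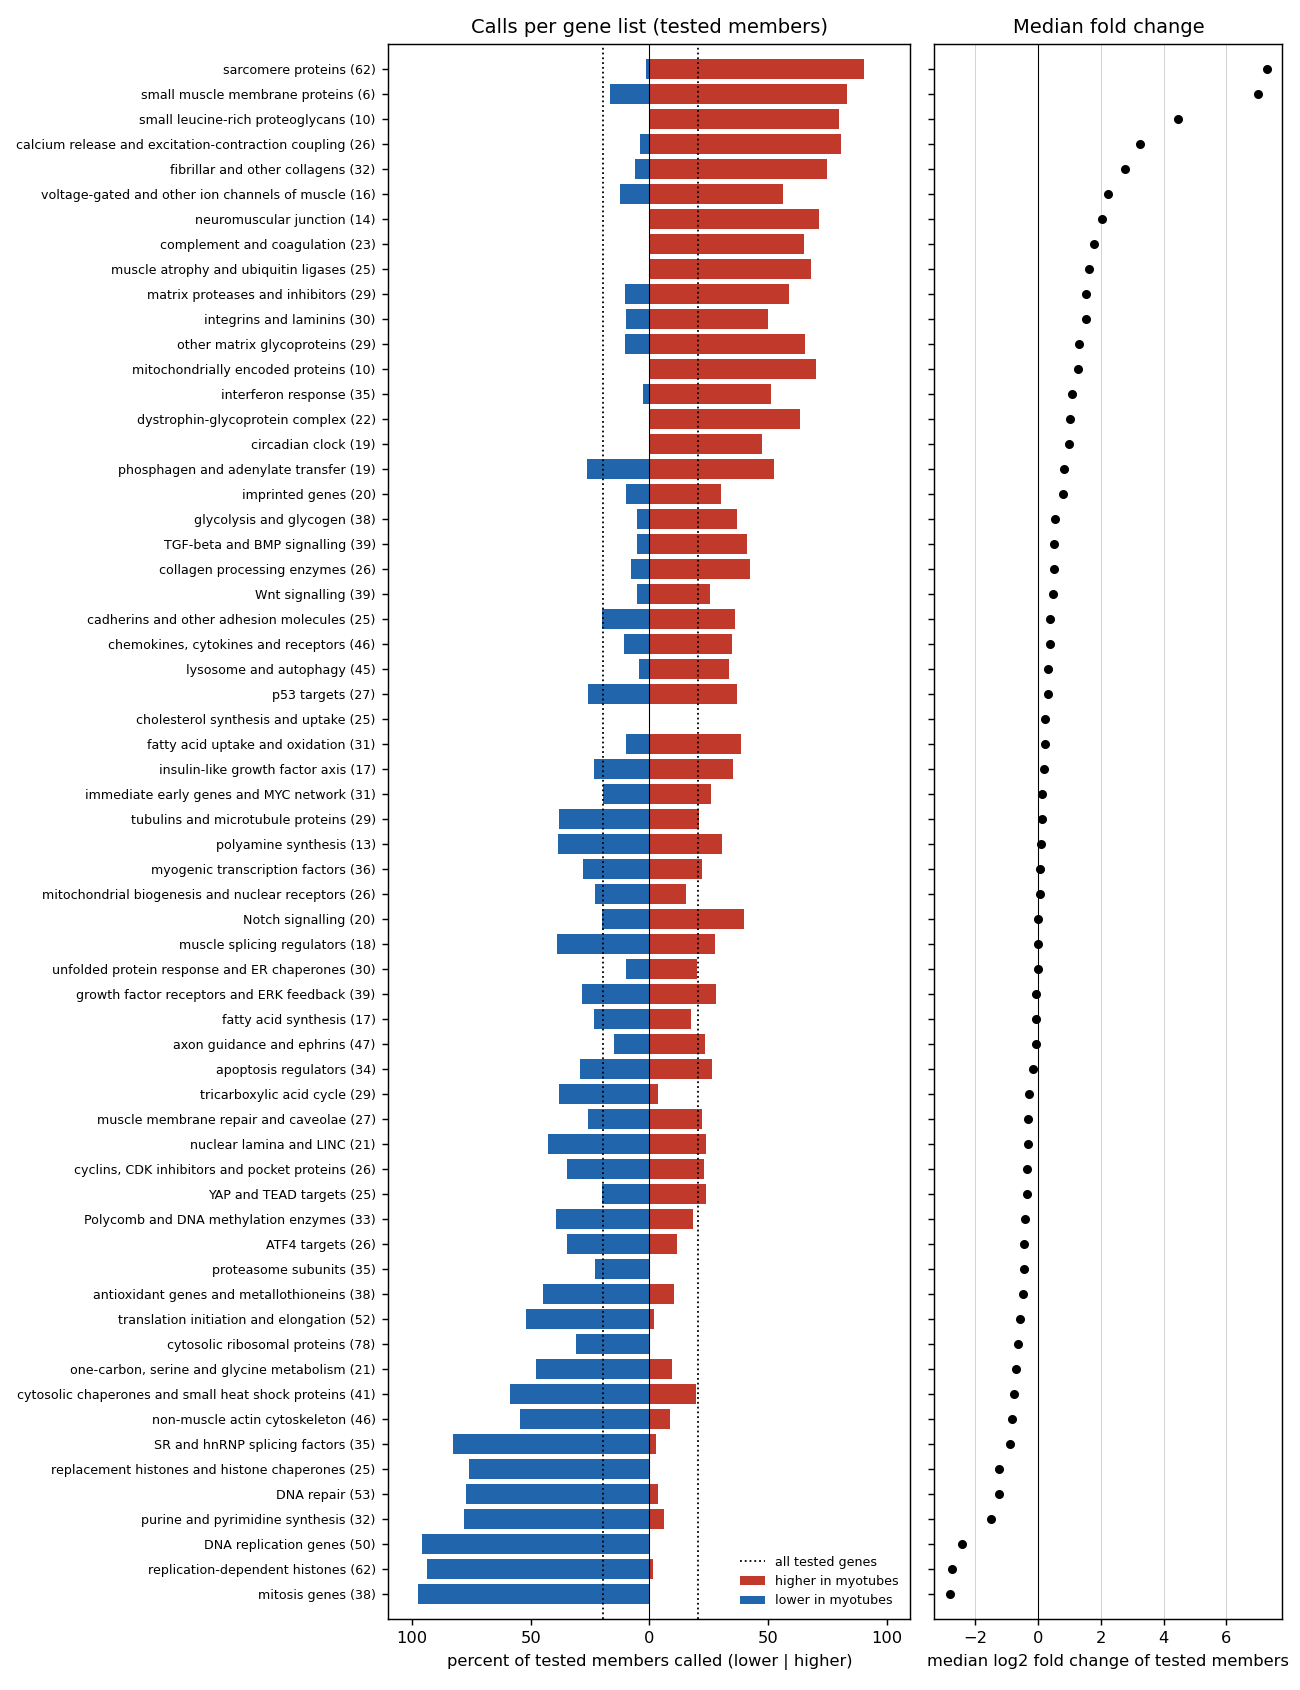
For each gene list the left panel gives the percent of its tested members called lower (blue, to the left) or higher (red, to the right), with dotted lines at the 19.6% and 20.5% of all tested genes, and the right panel the median log2 fold change of its tested members. Sarcomere genes reach furthest to the right, and mitosis, replication and histone genes furthest to the left, while cholesterol genes have no call.

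Collagens and other matrix genes rose. Of 32 tested collagen genes 24 rose and 2 fell (median 2.76, or 1.67 without myotube replicate 1). Col3a1, a fibrillar collagen of loose tissue, stood at 1232, 1439 and 1083 CPM in myoblasts and 24182, 6345 and 6898 CPM in myotubes, with a log2 fold change of 3.32 ± 0.58, or 2.38 without myotube replicate 1. Col1a1, the main collagen of tendon and bone, rose from 19.3, 17.5 and 35.3 CPM to 313, 208 and 256 CPM (3.44 ± 0.32, adjusted p = 0.000242), and Col5a2, which sets fibril width, from 795, 756 and 1082 CPM to 3819, 2499 and 2571 CPM (1.76 ± 0.28). Col23a1, a transmembrane collagen, rose from 0.1, 0.146 and 0.0469 CPM to 9.07, 65.1 and 49.5 CPM (8.56 ± 0.90) and, unlike the fibrillar ones, was lowest in myotube replicate 1. Col4a1, of the basement membrane, fell from 259, 351 and 698 CPM to 128, 151 and 136 CPM (-1.65 ± 0.35). The number of collagen genes that fell was 4 with no filter, 4 without myoblast replicate 1, 3 without myotube replicate 1 and 1 without each of the other libraries.

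Small proteoglycans that coat collagen fibrils rose in 8 of 10 tested genes, none fell, and their summed level went from 340, 422 and 345 CPM to 6582, 2129 and 2433 CPM. Dcn, decorin, was at 1.1, 4.01 and 4.08 CPM in myoblasts and 1675, 321 and 338 CPM in myotubes, a log2 fold change of 8.01 ± 0.97, or 6.78 without myotube replicate 1. Bgn, biglycan, rose from 230.1, 189.8 and 266 CPM to 2053, 1005 and 976 CPM (2.56 ± 0.35, adjusted p = 0.00106). The list's median of 4.47 was 3.57 with no filter, 5.11 where a mean count of 50 or more was required and 3.71 without myoblast replicate 3. Dcn, Lum, Col3a1 and Pdgfra are also markers of fibro-adipogenic progenitors, the fibroblast-like cells of muscle. Summed over that marker list the level was 1761, 1638 and 1213 CPM in myoblasts and 27212, 6910 and 7491 CPM in myotubes, and 6 of the 8 tested markers were called higher. Its markers Tcf21 and Dpp4 were at 0 or near 0 throughout, with a highest level of 0.0326 CPM. The part of such cells in the matrix results was not tested.

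Glycoproteins of the matrix rose in 19 of 29 tested genes and fell in 3 (median 1.31). Postn, periostin, made by activated fibroblasts and muscle precursors, rose from 11.3, 8.61 and 11.9 CPM to 1440, 688 and 1099 CPM (6.66 ± 0.37, adjusted p = 4.39e-05). Fbn1, the microfibril protein fibrillin, rose from 324, 146 and 231 CPM to 1888, 1778 and 1692 CPM (2.93 ± 0.32, adjusted p = 0.000425), and Mfap5, which binds to it, from 0.267, 0.341 and 0.609 CPM to 58.5, 68.8 and 70.8 CPM (7.45 ± 0.32). In these 2 genes the 3 myotube libraries lay close together, in contrast to the collagens. Thbs1, thrombospondin, rose from 1285, 1089 and 1957 CPM to 8706, 8406 and 7680 CPM (2.52 ± 0.32), and Fn1, fibronectin, from 1430, 1237 and 3111 CPM to 8307, 7077 and 8466 CPM (2.05 ± 0.40), also without a high replicate 1. Nid1, nidogen of the basement membrane, fell from 591, 800 and 1335 CPM to 283, 138 and 128 CPM (-2.31 ± 0.41), while its relative Nid2 rose from 65.1, 127 and 156 CPM to 559, 281 and 301 CPM (1.72 ± 0.39). The number that fell was 5 without myoblast replicate 1 or myotube replicate 1 and 1 without each of the other 4.

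Of 29 tested matrix proteases and inhibitors 17 were higher and 3 lower (median 1.53). The number that fell was 5 without myoblast replicate 1, 1 without myoblast replicate 3 and 1 where a mean count of 50 or more was required. Adamts5, an aggrecanase, rose from 35.1, 19.2 and 20.1 CPM to 291, 139 and 136 CPM (2.93 ± 0.39), and Plat, tissue plasminogen activator, from 31.3, 43.8 and 31.4 CPM to 145, 151 and 155 CPM (2.08 ± 0.19, adjusted p = 0.000225). Plaur, the receptor that holds urokinase at the cell surface, fell from 83.8, 107 and 186 CPM to 6.72, 5.67 and 4.4 CPM (-4.48 ± 0.35, adjusted p = 0.000146). Timp3, an inhibitor bound to matrix, rose from 241, 358 and 460.4 CPM to 1383, 982 and 788 CPM (1.57 ± 0.31). Of 30 integrin and laminin genes 15 rose and 3 fell (median 1.52), the latter 5 with library size scaling. Itga4, part of the receptor for VCAM1, rose from 0.901, 1.17 and 0.937 CPM to 45.1, 24.1 and 32.6 CPM (5.08 ± 0.31), and Itgb1bp2, melusin, a muscle partner of integrins, from 1.77, 0.949 and 1.5 CPM to 32.9, 91 and 85.3 CPM (5.62 ± 0.48). Lama2, the laminin of the muscle fibre's basement membrane, rose from 33.6, 32.2 and 39.7 CPM to 78.5, 109.9 and 122 CPM (1.56 ± 0.21). Among other adhesion molecules Cdh13, a cadherin without a cytoplasmic tail, rose from 25.1, 32.6 and 54.1 CPM to 242, 327 and 356 CPM (3.05 ± 0.32), and Cd44, the hyaluronan receptor, fell from 328, 566 and 846 CPM to 134, 152 and 160.1 CPM (-1.96 ± 0.33).

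For Wnt signalling 10 of 39 tested genes rose and 2 fell (median 0.47), 30.8% called against 40.1% of all tested genes, or 13 and 4 with the replicate number as a block. No Wnt gene was called lower without myoblast replicate 2 or 3, without myotube replicate 2 or 3 or with no filter. The ligand gene Wnt9a rose from 7.43, 6.89 and 5.44 CPM to 27.3, 63.3 and 61.4 CPM (2.94 ± 0.34), the R-spondin receptor gene Lgr5 from 0.234, 0.219 and 0.141 CPM to 7.61, 20.7 and 12.4 CPM (6.02 ± 0.50). Targets that feed back on the pathway rose too, Axin2 from 0.985, 0.925 and 0.844 CPM to 4.79, 11.1 and 8.8 CPM (3.16 ± 0.40) and Nkd2 from 1.42, 1.05 and 1.5 CPM to 11.5, 25.9 and 19.9 CPM (3.86 ± 0.37). All 4 genes were lowest in myotube replicate 1 among the myotube libraries. For TGF-beta and BMP signalling 16 of 39 rose and 2 fell (median 0.50), or 10 and 1 without myotube replicate 2 or 3. The share called was 46.2%, against 40.1% of all tested genes. A single gene also fell without myoblast replicate 2 or 3, with the replicate block, with limma-voom and where a mean count of 50 or more was required. Tgfb2 rose from 10.1, 11.5 and 19.7 CPM to 62.9, 74.7 and 70.4 CPM (2.34 ± 0.27) and Tgfb3 from 63.4, 59.4 and 57.2 CPM to 335, 293 and 314 CPM (2.39 ± 0.17, adjusted p = 8.93e-05), whereas Tgfb1 stood at 14.7, 24.5 and 18.6 CPM and 9.34, 18.8 and 23.2 CPM, with overlapping groups. The receptor gene Tgfbr2 rose from 94.7, 113 and 94.5 CPM to 359, 466 and 394 CPM (2.01 ± 0.19). Chrd, chordin, which traps BMPs, rose from 3.34, 4.43 and 2.53 CPM to 16.4, 38.7 and 40.4 CPM (3.20 ± 0.39), and Smad9, a BMP mediator, fell from 6.84, 6.86 and 6.56 CPM to 2.2, 1.3 and 1.5 CPM (-2.01 ± 0.33).

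Notch ligands moved apart. Dll1 rose from 0.985, 2.65 and 1.55 CPM to 9.23, 40.7 and 35.2 CPM (4.04 ± 0.62) and Jag1 from 14, 13.8 and 20.1 CPM to 87, 40.8 and 37.6 CPM (1.79 ± 0.35), the former lowest and the latter highest in myotube replicate 1. Jag2 fell from 62.6, 98.6 and 108 CPM to 10.2, 23.7 and 23.9 CPM (-2.22 ± 0.36), as did Lfng, a glycosyltransferase that tunes the receptors, from 26.6, 31.8 and 26.1 CPM to 7.84, 5.86 and 5.21 CPM (-2.16 ± 0.22). Over the Notch list 8 of 20 rose and 4 fell, 60% called against 40.1% of all tested genes. The number that rose was 5 without myoblast replicate 1 or 3 or myotube replicate 2 or 3. In the insulin-like growth factor axis 6 of 17 rose and 4 fell, 58.8% called. The number that fell was 2 without myoblast replicate 1, 2 or 3, without myotube replicate 3 and where a mean count of 50 or more was required. Igf1 was at 0.801, 1.56 and 0.469 CPM in myoblasts and 404, 104 and 132 CPM in myotubes, a log2 fold change of 7.77 ± 0.74, or 6.88 without myotube replicate 1. Its binding proteins changed in opposite directions. Igfbp2 fell from 441, 491 and 494 CPM to 36.3, 23.4 and 28.9 CPM (-4.01 ± 0.23, adjusted p = 4.39e-05), and Igfbp4 rose from 1.55, 4.38 and 3.28 CPM to 90.9, 163 and 172 CPM (5.54 ± 0.46).

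Several feedback genes of ERK signalling, which growth factors switch on, were lower, and some receptors were higher. Of 39 tested genes 11 rose and 11 fell (median -0.06), or 7 and 9 without myoblast replicate 2. The share called was 56.4%, against 40.1% of all tested genes. The ERK phosphatase genes Dusp4, Dusp5 and Dusp6 fell. Dusp4 went from 112, 162 and 201 CPM to 22.7, 43.9 and 29.4 CPM (-2.31 ± 0.31), Dusp5 from 34.7, 41.5 and 83.3 CPM to 4.59, 9.54 and 6.95 CPM (-2.91 ± 0.41) and Dusp6 from 58.4, 79.4 and 116 CPM to 22.5, 38.8 and 31.6 CPM (-1.45 ± 0.30). Etv4, a transcription factor induced by ERK, fell from 52, 67 and 83 CPM to 5.56, 9.96 and 7.58 CPM (-3.12 ± 0.28), and Fosl1, an AP-1 subunit, from 41.8, 46.1 and 82.9 CPM to 3.86, 2.41 and 2.37 CPM (-4.30 ± 0.36). Spry1, a feedback inhibitor of receptor signalling known from quiescent muscle stem cells, rose from 1.8, 2.46 and 3.28 CPM to 22.8, 61.5 and 50.9 CPM (4.18 ± 0.42). Erbb3, a neuregulin receptor, rose from 8.8, 14.7 and 12.4 CPM to 51.1, 145 and 129.8 CPM (3.18 ± 0.41), and Egfr, the EGF receptor, from 70.3, 34.5 and 48.5 CPM to 239, 113 and 130.1 CPM (1.65 ± 0.36). In the MYC network Myc fell from 55.1, 38.3 and 79.8 CPM to 17, 25.7 and 29.6 CPM (-1.26 ± 0.31), and its antagonists rose, Mxd1 from 6.34, 6.91 and 5.67 CPM to 40.6, 69.8 and 78 CPM (3.31 ± 0.28) and Mxd4 from 33, 53.4 and 21.9 CPM to 179.8, 132 and 124 CPM (2.01 ± 0.33).

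Targets of p53 split, with 10 of 27 higher and 7 lower (median 0.30), 63% called against 40.1% of all tested genes. Gadd45a, a stress and growth arrest gene, rose from 11.8, 15.9 and 13.7 CPM to 170.1, 215 and 198 CPM (3.82 ± 0.20, adjusted p = 4.39e-05). Eda2r, a receptor of the TNF family, rose from 29.6, 44.9 and 44.8 CPM to 156, 299.6 and 334 CPM (2.73 ± 0.33). Trp53 itself fell from 75.1, 74.8 and 90 CPM to 21.6, 31.2 and 30.7 CPM (-1.52 ± 0.20), and so did its target Bax, which opens mitochondria in apoptosis, from 71.2, 75.1 and 60.6 CPM to 28.9, 29 and 23.1 CPM (-1.35 ± 0.18). Mdm2, a target that answers p53 activity in most cells, stood at 113, 140.2 and 154 CPM and 71.6, 129 and 123 CPM and was not called. Apoptosis regulators also moved both ways, 9 of 34 higher and 10 lower, 55.9% called against that 40.1%. Bmf, which triggers apoptosis in detached cells, rose from 1.44, 1.95 and 0.844 CPM to 76.8, 29.8 and 42.4 CPM (5.11 ± 0.46). Nol3, an inhibitor of apoptosis in muscle, rose from 10.5, 12.3 and 9.04 CPM to 32.8, 34.1 and 31.6 CPM (1.63 ± 0.18).

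Of 19 tested genes of the circadian clock 9 rose and none fell (median 0.99), 47.4% called against 40.1% of all tested genes. Without myoblast replicate 2 the number that rose was 5. Bhlhe40, a clock repressor, rose from 31.9, 39.6 and 45.6 CPM to 140.3, 253 and 176 CPM (2.28 ± 0.26), Tef, an output factor, from 73.8, 90.3 and 66.6 CPM to 228, 170.4 and 138 CPM (1.22 ± 0.23) and Per2 from 6.93, 7.49 and 6.47 CPM to 15.4, 12.8 and 13.8 CPM (1.01 ± 0.21). The activators Arntl, at 24.2, 22.4 and 23.1 CPM and 17.3, 28.4 and 32.4 CPM, and Clock, at 201, 219.7 and 254 CPM and 141, 169.5 and 194 CPM, were not called, although Clock was called lower with library size scaling (adjusted p = 0.0447). The hour of harvest is not given in the labels.

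Of 35 tested genes of the interferon response 18 rose and 1 fell, 54.3% called against 40.1% of all tested genes. The median was 1.07, or 0.66 without myotube replicate 1, and 10 were higher without myoblast replicate 2. Parp9 rose from 9.05, 8.61 and 4.59 CPM to 30.4, 28.5 and 32.2 CPM (2.02 ± 0.27), Xaf1 from 1.9, 1.66 and 1.41 CPM to 14.1, 7.78 and 9.03 CPM (2.63 ± 0.34) and Ifi27 from 18.3, 26.6 and 17.6 CPM to 78.4, 53 and 40.6 CPM (1.46 ± 0.28). Of 23 tested complement and coagulation genes 15 rose and none fell (median 1.79), with 2 lower without myotube replicate 1, and the summed level went from 341, 327 and 335 CPM to 2474, 1656 and 1683 CPM. Serping1, the inhibitor of the classical pathway's C1, rose from 1, 2.07 and 1.17 CPM to 17.8, 50.4 and 63.3 CPM (4.95 ± 0.54), and Cd55, a surface inhibitor, from 4.09, 7.88 and 7.5 CPM to 11.9, 20.2 and 21.2 CPM (1.46 ± 0.33). Of 46 chemokine, cytokine and receptor genes 16 rose and 5 fell (median 0.38), 45.7% called against 40.1% of all tested genes. The number that fell was 10 with the replicate number as a block, 9 with library size scaling, 8 with DESeq2, 13 without myotube replicate 1 and 3 without myoblast replicate 2. Lif, a cytokine that contracting muscle releases, rose from 2.25, 2.21 and 2.81 CPM to 5.87, 24.1 and 20.4 CPM (2.80 ± 0.50), and Osmr, a receptor subunit of its family, from 41.6, 28 and 23.4 CPM to 239, 134 and 165 CPM (2.53 ± 0.30). Fndc5, the precursor of the hormone irisin, rose from 0.618, 0.779 and 0.469 CPM to 9.57, 31.3 and 35.5 CPM (5.32 ± 0.55). Csf1, a growth factor for macrophages, fell from 445, 332 and 522 CPM to 197, 169.6 and 180.3 CPM (-1.25 ± 0.21).

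Many genes of protein synthesis were lower. Of 52 tested genes of translation initiation and elongation 27 fell and 1 rose (median -0.59), with 17 and 15 lower when myoblast replicate 2 or 3 was left out, and with 2 higher without myotube replicate 1 or with no filter. Eif5a, which helps ribosomes past difficult stretches, fell from 810.3, 784 and 822 CPM to 169, 273 and 273 CPM (-1.76 ± 0.24, adjusted p = 0.00109). Pabpc1, the poly(A)-binding protein, fell from 538, 499 and 817 CPM to 244, 189.8 and 225 CPM (-1.49 ± 0.24), and Eif4e, the cap-binding protein, from 133, 168 and 200.3 CPM to 72.1, 84.7 and 82.3 CPM (-1.07 ± 0.20). Eif4a2 was the member that rose, from 244, 233 and 293 CPM to 555, 453 and 469 CPM (0.94 ± 0.19). Ribosomal protein genes had a median of -0.63, but how many of the 78 passed the test depended on the libraries. In the main fit 30.8% were called, all lower, where 19.6% of all tested genes were lower. Lower were 24, and 70 without myotube replicate 1, 11 and 12 without myoblast replicate 2 and 3, 9 and 8 without myotube replicate 2 and 3, 45 with library size scaling, 40 with no filter and 39 with DESeq2. Their summed level was 35828, 37583 and 35029 CPM in myoblasts and 30623, 20295 and 18477 CPM in myotubes, so that myotube replicate 1 lay nearer the myoblasts. Rps2 fell from 867, 805 and 765 CPM to 437, 359 and 329 CPM (-1.11 ± 0.20) and Rpl8 from 1145, 1282 and 1226 CPM to 738, 596 and 479 CPM (-1.01 ± 0.23).

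Of 41 tested chaperone genes 24 fell and 8 rose (median -0.76). Hspd1, the mitochondrial chaperonin, fell from 618, 733 and 981 CPM to 129.7, 167 and 159 CPM (-2.35 ± 0.24, adjusted p = 0.000335), and its partner Hspe1 from 201, 193 and 216 CPM to 53.7, 55 and 55.7 CPM (-1.89 ± 0.15, adjusted p = 0.00016). Cct7, of the ring that folds actin and tubulin, fell from 349.9, 460 and 526 CPM to 144, 206 and 168 CPM (-1.37 ± 0.23). Hsp90aa1 fell from 1013, 1580 and 1682 CPM to 426, 549 and 493 CPM (-1.54 ± 0.26). Among small heat shock proteins Hspb1 fell from 231, 333 and 334 CPM to 65.8, 145 and 123 CPM (-1.43 ± 0.31), and Hspb2, which pairs with a muscle-specific partner, rose from 3, 3.67 and 3.7 CPM to 23.4, 46.1 and 40.5 CPM (3.41 ± 0.29). Hspb8 rose from 71.2, 77.2 and 72.1 CPM to 116, 227 and 221 CPM (1.35 ± 0.26). Proteasome subunit genes fell in 8 of 35 cases, 22.9% against 19.6% of all tested genes, and rose in none (median -0.47), with 1 higher without myotube replicate 1 or where a mean count of 50 or more was required, 1 higher and 13 lower with the replicate number as a block, 14 lower with library size scaling, 4 without myoblast replicate 2 or 3 and 5 without myotube replicate 3. Psmd3, of the regulatory lid, fell from 201, 192 and 195 CPM to 63.2, 121 and 106 CPM (-1.02 ± 0.24).

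Some genes of lysosomes and most tested genes of the ubiquitin ligase list rose. Of 45 lysosome and autophagy genes 15 rose and 2 fell (median 0.33), 37.8% called against 40.1% of all tested genes, and the number that fell was 1 without myoblast replicate 1 or 2 or myotube replicate 3. Map1lc3a, an autophagosome protein, rose from 18.1, 21.4 and 14.8 CPM to 109.8, 105 and 103 CPM (2.55 ± 0.19, adjusted p = 0.000124), and Ctsd, a lysosomal protease, from 206, 234 and 190.2 CPM to 441, 753 and 692 CPM (1.58 ± 0.24). Tfeb, a master regulator of lysosome genes, rose from 7.78, 7.35 and 4.69 CPM to 13.5, 18.9 and 16.9 CPM (1.31 ± 0.27), and its relative Tfe3 fell from 50, 55.3 and 48.2 CPM to 33.7, 27.7 and 27.3 CPM (-0.79 ± 0.17). Of 25 tested genes of the atrophy and ubiquitin ligase list 17 rose and none fell (median 1.62, or 2.35 with no filter), and 2 were lower with library size scaling or without myotube replicate 1. Fbxo32 and Trim63, the ligases atrogin and MuRF known from wasting muscle, rose from 22.4, 44.9 and 52.5 CPM to 103, 136 and 128 CPM (1.62 ± 0.31) and from 0.117, 0.292 and 0.328 CPM to 21.7, 41.2 and 42.4 CPM (7.26 ± 0.47, adjusted p = 7.04e-05). Foxo3, the factor that drives both in wasting, rose from 52.4, 56 and 45.7 CPM to 131, 99.3 and 116 CPM (1.17 ± 0.18). Klhl41, an adaptor that keeps nebulin stable, rose from 0.668, 1.95 and 1.78 CPM to 166, 397 and 474 CPM (7.92 ± 0.62).

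Cell cycle genes fell nearly without exception. Of 38 mitosis genes 37 fell (median -2.81, or -3.66 without myotube replicate 1), and of 50 replication genes 48 fell (median -2.43). None rose in either list except 1 replication gene without myotube replicate 1. With no filter 26 mitosis genes and 49 replication genes were called lower. Cdc6, which loads the replicative helicase, fell from 58.5, 53.3 and 61.9 CPM to 4.01, 2.9 and 2.72 CPM (-4.17 ± 0.22, adjusted p = 4.39e-05). Orc1, of the origin recognition complex, fell from 24.9, 21.6 and 26.8 CPM to 1.27, 1.73 and 1.1 CPM (-4.14 ± 0.26, adjusted p = 5.89e-05), and the helicase subunit gene Mcm5 from 247, 229 and 224 CPM to 18.2, 14.4 and 9.49 CPM (-4.05 ± 0.27, adjusted p = 7.56e-05). For these genes myotube replicate 1 was within 2-fold of the other myotube libraries. In the mitosis genes it was higher. Cdk1, the kinase that starts mitosis, was at 229.5, 317 and 299 CPM in myoblasts and 73, 22.7 and 16.6 CPM in myotubes (-2.91 ± 0.54, or -3.85 without that library), and Ccnb1, its cyclin, at 152, 245 and 219 CPM and 28.4, 13 and 9.15 CPM (-3.60 ± 0.44, or -4.22). Foxm1, which drives mitosis genes, fell from 92.4, 114 and 120.1 CPM to 14.4, 7.1 and 5.62 CPM (-3.58 ± 0.36).

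Repair genes followed replication, 41 of 53 lower and 2 higher (median -1.26). Exo1, a nuclease of mismatch repair, fell from 57.6, 45.7 and 52.7 CPM to 4.32, 2.87 and 2.32 CPM (-4.03 ± 0.27, adjusted p = 7.89e-05), and Ung, which removes uracil from DNA, from 16.9, 14.8 and 19.6 CPM to 0.965, 1.92 and 1.22 CPM (-3.63 ± 0.33). Xpa, which verifies damage in nucleotide excision repair, rose from 10.7, 10.3 and 7.83 CPM to 19.3, 16 and 17.7 CPM (0.88 ± 0.21, adjusted p = 0.0119). The other member called higher, Prkdc, the kinase of end joining, was at 52.7, 33.8 and 34.8 CPM and 102, 60.9 and 62.9 CPM (adjusted p = 0.0303). Its adjusted p rose to 0.114 and 0.106 when myoblast replicate 2 or 3 was left out, to 0.0631 without myotube replicate 1 and to 0.0595 with library size scaling, each past the threshold.

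D-type cyclins, which start the cycle, diverged. Ccnd1 stood at 704, 576 and 674 CPM in myoblasts and 101, 32.8 and 30.3 CPM in myotubes, a log2 fold change of -3.58 ± 0.49, or -4.39 without myotube replicate 1. Ccnd2 fell from 51, 47.9 and 72.9 CPM to 8.22, 9.54 and 9.15 CPM (-2.67 ± 0.22, adjusted p = 0.00016), and Ccnd3, known to stay on in muscle, rose from 91.1, 107 and 91.1 CPM to 154, 276 and 278 CPM (1.29 ± 0.25). Cdk4, their partner kinase, fell from 403, 421 and 395 CPM to 127, 137 and 132 CPM (-1.62 ± 0.16). Pocket proteins that hold E2F in check diverged too, since Rb1 rose from 23.8, 46.4 and 44.8 CPM to 62.7, 98.4 and 104 CPM (1.20 ± 0.30) and Rbl2 from 69.8, 76.2 and 50.5 CPM to 150.2, 136 and 139 CPM (1.11 ± 0.19), while Rbl1 was at 75.8, 76.5 and 73.9 CPM and 35, 13.5 and 11.9 CPM (-1.90 ± 0.40, or -2.59 without myotube replicate 1).

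**Figure D5:**
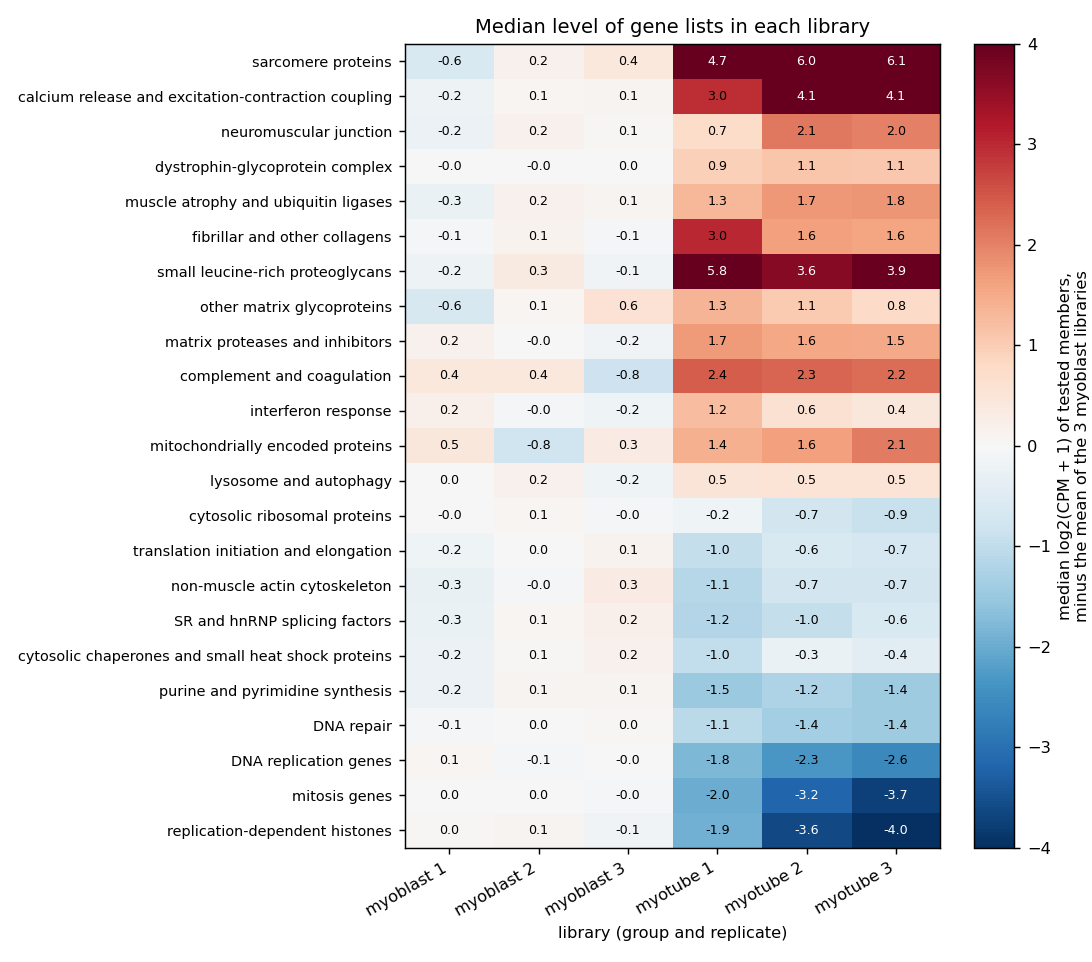
The colour gives, for 23 gene lists (rows) in each of the 6 libraries (columns), the median log2(CPM + 1) of the tested members minus the mean of the 3 myoblast libraries. Colours are capped at both ends of the scale, and each cell prints its value. Myotube replicate 1 has a smaller printed value than replicates 2 and 3 for sarcomere genes, where all 3 colours are capped. It is paler for mitosis genes and has a larger printed value for small proteoglycans.

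Histones fell with replication. Of 62 tested replication-dependent histone genes 58 fell and 1 rose (median -2.75, or -3.85 without myotube replicate 1), and 30 fell with no filter. Their summed level went from 9215, 9001 and 7160 CPM to 2712, 1068 and 970 CPM. These transcripts lack poly(A) tails, and the libraries were not selected for such tails. H4c4 fell from 714, 531 and 458 CPM to 168, 70.2 and 75.5 CPM (-2.44 ± 0.38) and the linker histone gene H1f4 from 537, 486 and 426 CPM to 216, 90.9 and 93.8 CPM (-1.85 ± 0.35), although reads of such similar genes may be split among them. The member called higher, H2aw, stood at 1.59, 1.58 and 1.64 CPM and 5.17, 2.87 and 3.01 CPM (adjusted p = 0.0341), and lost its call whichever of the 6 libraries was left out (adjusted p 0.0581 to 0.101) and with library size scaling or no filter (0.0571 and 0.061). Replacement histones and their chaperones, which do not need replication, fell in 19 of 25 cases and rose in none (median -1.26), or in 1 with the replicate block. H2az1 fell from 226, 304 and 256 CPM to 88.7, 65.1 and 47.1 CPM (-1.97 ± 0.26), while H3f3a was at 182, 184 and 139.5 CPM and 239.9, 207 and 226 CPM and not called (0.41 ± 0.18).

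Genes of silencing moved in both directions. Of 33 tested genes of the Polycomb and DNA methylation list 13 fell and 6 rose (median -0.43). The share called was 57.6%, against 40.1% of all tested genes. Uhrf1, which brings the maintenance methyltransferase to new DNA, fell from 291, 255 and 278 CPM to 23.4, 14.8 and 10.9 CPM (-4.06 ± 0.30, adjusted p = 0.000123), and that enzyme, Dnmt1, from 323, 282 and 292 CPM to 71.6, 55.5 and 53.4 CPM (-2.31 ± 0.19, adjusted p = 0.00016). Dnmt3a, which methylates new sites, rose from 17.8, 15 and 16.1 CPM to 38.1, 32.1 and 37.7 CPM (1.14 ± 0.17), and the demethylating oxidase gene Tet2 from 37.3, 24 and 27.4 CPM to 78.9, 66.5 and 96.3 CPM (1.45 ± 0.23). Ezh2, the Polycomb methyltransferase of dividing cells, fell from 65.3, 79.3 and 88.9 CPM to 28.3, 23.5 and 25.2 CPM (-1.60 ± 0.18), and its counterpart Ezh1 rose from 28.5, 29.4 and 18.8 CPM to 112, 95.3 and 112 CPM (2.06 ± 0.22). Their partners Eed (-0.79 ± 0.16) and Suz12 (-1.16 ± 0.20) fell. Suv39h1, which methylates constitutive heterochromatin, fell from 76.3, 87.6 and 92 CPM to 14.8, 18.8 and 14.5 CPM (-2.41 ± 0.19, adjusted p = 0.000136).

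General splicing factors fell, and those tied to muscle moved both ways. Of 35 tested SR and hnRNP genes 29 fell and 1 rose (median -0.91), and their summed level went from 9890, 10571 and 11272 CPM to 4650, 5595 and 5720 CPM. The gene that rose, Srsf5, was not called whichever library was left out, nor with library size scaling or no filter (adjusted p 0.0511 to 0.162). Ptbp1, a repressor of muscle and neuron exons, fell from 410.2, 363 and 439 CPM to 82.1, 105 and 103 CPM (-2.06 ± 0.19, adjusted p = 0.000222). Hnrnpa1 fell from 801, 739.9 and 810 CPM to 279, 256 and 291 CPM (-1.51 ± 0.18) and Srsf2 from 310.3, 321 and 356 CPM to 55.5, 114 and 103 CPM (-1.86 ± 0.28). Of 18 tested splicing regulators of muscle 5 rose and 7 fell, 66.7% called against 40.1% of all tested genes. The number that rose was 3 without myoblast replicate 1 or 2 or myotube replicate 3. Rbm24, which promotes muscle exons, rose from 0.517, 2.31 and 2.25 CPM to 44.7, 125 and 129 CPM (5.93 ± 0.69, adjusted p = 0.000606). Mbnl3, known to hold back differentiation, fell from 30.8, 34.2 and 36.2 CPM to 16.8, 10.4 and 11.3 CPM (-1.39 ± 0.22), whereas Mbnl1, the main muscleblind of muscle, was at 591, 662 and 682 CPM and 997, 789.8 and 819 CPM and was not called (0.43 ± 0.20, adjusted p = 0.119). Celf1, its antagonist, was at 156, 156 and 212 CPM and 92.1, 157 and 162 CPM, with overlapping groups.

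Of 21 tested genes of the nuclear envelope 9 fell and 5 rose (median -0.34), 66.7% called against 40.1% of all tested genes. Lmnb1, a lamin of dividing cells, fell from 167, 151 and 149.5 CPM to 20.5, 12.5 and 8.63 CPM (-3.49 ± 0.32, adjusted p = 0.000217), and Lbr, the lamin B receptor, from 181, 166 and 152 CPM to 72.5, 58.8 and 48.8 CPM (-1.47 ± 0.20). Lmna, which is often tied to differentiated cells, fell as well, from 1597, 1971 and 1706 CPM to 638, 887 and 672 CPM (-1.26 ± 0.23). Plpp7, a muscle protein of the envelope, rose from 0.517, 0.681 and 0.75 CPM to 6.29, 21.1 and 17.7 CPM (4.54 ± 0.51), Tmem38a, a potassium channel of envelope and calcium store, from 10.8, 11.9 and 8.25 CPM to 121, 258 and 256 CPM (4.36 ± 0.35, adjusted p = 0.000146), and Syne1, which anchors nuclei, from 70.2, 49 and 50.8 CPM to 198, 159.7 and 193 CPM (1.70 ± 0.20).

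In the non-muscle cytoskeleton 25 of 46 tested genes fell and 4 rose (median -0.84). The number that rose was 2 without myoblast replicate 1 or 2 or myotube replicate 2, 1 without myoblast replicate 3 or myotube replicate 3 and 7 without myotube replicate 1. Tagln2, an actin-bundling protein, fell from 381, 569 and 851 CPM to 135, 114 and 91.3 CPM (-2.40 ± 0.32), Fscn1, fascin of filopodia, from 319, 428 and 472 CPM to 62.2, 101 and 94.7 CPM (-2.24 ± 0.26) and Ezr, ezrin, from 352, 294 and 300.1 CPM to 66.3, 76.9 and 76.1 CPM (-2.11 ± 0.17, adjusted p = 0.000166). Tpm4, a tropomyosin of stress fibres, fell from 871, 1345 and 1795 CPM to 584, 585 and 585 CPM (-1.19 ± 0.28), with hardly any spread among the myotube libraries. Of 29 tubulin and microtubule genes 11 fell and 6 rose (median 0.12), 58.6% called against 40.1% of all tested genes. Tubb3, a tubulin also used as a neuron marker, fell from 138, 150 and 180 CPM to 10, 37.1 and 30.7 CPM (-2.59 ± 0.44), and Tuba1c from 162, 202 and 234 CPM to 58.6, 64.3 and 60.3 CPM (-1.71 ± 0.19, adjusted p = 0.000436). Mapt, the microtubule protein tau, rose from 0.401, 0.56 and 0.562 CPM to 3.78, 20.2 and 19.9 CPM (4.86 ± 0.67), and Akap6, an anchor at the nuclear envelope where myotubes form microtubules, from 23.2, 27.4 and 26 CPM to 163, 310.3 and 332 CPM (3.39 ± 0.29, adjusted p = 0.000184).

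Of 47 tested guidance genes better known from axons 11 were higher and 7 lower (median -0.08), or 10 and 11 with library size scaling. The share called, 38.3%, was close to the 40.1% of all tested genes. Slit2, a repellent ligand, rose from 56.9, 47.1 and 33.8 CPM to 296, 193 and 171 CPM (2.26 ± 0.28), and its receptor gene Robo1 fell from 32.5, 49.4 and 46.8 CPM to 9.3, 15.2 and 19.1 CPM (-1.56 ± 0.29). Ntn4, a laminin-like netrin, rose from 6.58, 9.78 and 8.76 CPM to 81, 53.8 and 60.4 CPM (2.96 ± 0.24, adjusted p = 0.00016). Epha2, an ephrin receptor, fell from 226, 256 and 347 CPM to 55.7, 90.4 and 73.4 CPM (-1.92 ± 0.25). The neurofilament genes Nefl and Nefm, with Tubb3, made up most of the neuron marker list in myoblasts, whose summed level was 407.8, 674.6 and 814.8 CPM in myoblasts and 61.92, 72.42 and 69.76 CPM in myotubes, while the neuronal genes Rbfox3, Snap25 and Elavl4 were at 0 in every library.

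For some genes the difference was bounded closely around 0. For 520 tested genes the 95% interval of the log2 fold change lay within 0.5 of 0 on either side. The most abundant of them were Sptan1, the spectrin of non-erythroid cells, the splicing factor gene Sf3b1, the ubiquitin ligase gene Huwe1 and Eprs, a transfer RNA synthetase. Sptan1 was at 809, 645 and 742 CPM and 674, 781 and 748 CPM, with an interval of -0.45 to 0.46. Eprs was at 461, 394 and 479 CPM and 445, 425 and 412 CPM, with an interval of -0.47 to 0.35. Akr1a1, Ube2d3, Dnaja2 and Nptn followed. These intervals hold under TMM scaling, and scaling by library size moved the median of all tested genes from 0.060 to -0.065.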

How the data were processed

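Total RNA was extracted with TRIzol, DNase-treated and column-purified, and stranded libraries depleted of ribosomal RNA were made, per the labels' protocols. The deposited table holds raw read counts per gene made by the authors. The submitters' processing notes name bcl2fastq, STAR 2.5.1b, featureCounts 1.5.1, Salmon 0.12.0, DESeq2 1.18.1 and mm10 without their roles, while how strand was set in counting is not given in the sources used here. Antisense, overlapping and near-identical genes are therefore uncertain.

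Counts of 3 libraries per group were filtered by expression, TMM-scaled and tested with edgeR 4.0.16 (quasi-likelihood test, R 4.3.3, Benjamini-Hochberg adjustment over all tested genes). Alternatives were library size scaling, no filter, a mean count of at least 50, DESeq2 1.42.0, limma-voom 3.58.1, a replicate block and leaving out each library. The fit was tested on simulated data with known changes. There a much smaller share of genes was changed than was called here, so that test cannot show how the fit performs on changes this broad. Genes were named as the 12 largest called folds per direction (at least 20 CPM, groups apart), the 10 largest CPM differences per direction, 3 abundant called members of each list per direction, 10 genes at 0 in the other group, the 8 most abundant with a narrow interval, the markers and the detected small membrane proteins. Members and lists were chosen with earlier results of these data known, and other named genes after their values were seen. Same-numbered libraries deviated together (r of 0.232, 0.189 and 0.17), although myoblast replicate 3 and myotube replicate 2 did so more (0.358) and the labels do not say what a number marks. Intervals and floors cover counting error only. Some named genes are not reported here.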

Additional observations from a re-analysis of the deposited data

How the results depend on the processing

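Of 455 called genes among those tabulated, 0 changed direction under any alternative run, but 111 lost their call under at least 1 of them, 102 when a single library was left out. Requiring a mean count of at least 50 gave 907 genes more than 4-fold higher, with 12577 genes tested. With single libraries left out, the genes called higher ranged from 2430 to 3599 and those lower from 2127 to 3517, and those more than 4-fold higher from 1396 to 1987 and more than 4-fold lower from 644 to 870. Scaling by library size moved the share of higher calls from 51.1% to 42.1%. With the replicate number as a block, 3561 genes were higher and 3322 lower, and named genes that lost their calls with this pairing included Axl, Clcn1, Etfb, Fzd6, H2-D1, Hadha, Hcn2 and Smad7. Genes of few counts are limited by depth, and the smallest library held 18335785 counts.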
